A study of Mus musculus with 9 samples.

Results

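The 9 enzymes of glycogen metabolism and glycolysis described here in injured mouse muscle were Gys1, Pygm, Hk1, Hk2, Pfkm, Pfkl, Aldoa, Eno3 and Ldha. They were chosen by gene symbol, 9 genes of the 55536 gene identifiers in the count tables, and Aldoa carries a second identifier, so that 10 identifiers match. All 9 passed the filter on low counts that left 16039 genes for testing. Quadriceps muscle of C57BL/6 mice with volumetric muscle loss, a surgical removal of a piece of muscle, gave the RNA for 9 sequenced libraries. Of these, 4 carry the label wild type and 5 the label IL17ra-/-, which names a knockout of a receptor subunit for interleukin-17 cytokines. Both groups carry the same age label of 6 weeks and had the same surgery, and the knockout is described by its genotype label alone. The labels give 2 versions of the treatment for both groups, saline with tissue taken at 1 week in the sample characteristics, and PCL with tissue taken at 6 weeks in the protocol. The design text speaks of 3 animals per genotype and no label ties a library to an animal, so that p-values measure the spread between these libraries, which may be technical.

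Glycogen is the glucose store of the muscle fibre, built by glycogen synthase and released by glycogen phosphorylase. Glucose from blood or glycogen then runs through glycolysis, which gives ATP and pyruvate, and lactate dehydrogenase interconverts pyruvate and lactate. Several steps exist as isoenzymes from separate genes. Pygm, Pfkm and Eno3 encode the muscle forms of phosphorylase, phosphofructokinase and enolase, Gys1 the muscle form of glycogen synthase that other tissues outside the liver also use, and Hk2 the hexokinase of insulin-sensitive tissues such as muscle. Hk1, Aldoa and Ldha are expressed in many tissues, Aldoa and Ldha strongly in fast muscle, and Pfkl is the liver form of phosphofructokinase and is widely expressed at low level.

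The promoters of 4 members are shown as examples of genes whose groups did not overlap: Gys1 and Pygm were higher, and Hk2 and Ldha lower, in every library labelled IL17ra-/- than in every library labelled wild type. Pfkm, also higher without overlap, has 4 listed windows and is not shown. Each line holds the 250 bases before a RefSeq transcription start on GRCm38.p6, 5′ to 3′ on the gene's strand, and capitals mark ACGTG on either strand, which reads CACGT on the strand shown when it lies on the other one. ACGTG is a form of the core of sites bound by hypoxia-inducible factors and, as CACGTG, by several E-box factors. The windows are chr7:45434589-45434838 (plus strand) for Gys1, chr19:6384158-6384407 (plus strand) for Pygm, chr6:82774455-82774704 (minus strand) for Hk2 and chr7:46845554-46845803 (plus strand) for Ldha.
Gys1: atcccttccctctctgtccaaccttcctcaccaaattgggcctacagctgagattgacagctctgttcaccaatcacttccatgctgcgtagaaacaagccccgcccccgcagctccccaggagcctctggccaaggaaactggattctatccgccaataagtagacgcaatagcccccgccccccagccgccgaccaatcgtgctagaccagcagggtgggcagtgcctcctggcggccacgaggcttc
Pygm: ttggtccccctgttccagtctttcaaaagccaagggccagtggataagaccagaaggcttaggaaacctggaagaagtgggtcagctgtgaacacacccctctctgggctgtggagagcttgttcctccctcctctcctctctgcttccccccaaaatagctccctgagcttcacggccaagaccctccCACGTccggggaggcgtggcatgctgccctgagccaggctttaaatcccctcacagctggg
Hk2: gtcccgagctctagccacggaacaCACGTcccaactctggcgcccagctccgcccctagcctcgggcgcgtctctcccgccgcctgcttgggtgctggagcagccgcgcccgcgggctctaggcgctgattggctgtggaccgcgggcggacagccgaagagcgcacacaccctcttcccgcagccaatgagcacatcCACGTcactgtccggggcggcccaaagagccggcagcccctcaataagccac
Ldha: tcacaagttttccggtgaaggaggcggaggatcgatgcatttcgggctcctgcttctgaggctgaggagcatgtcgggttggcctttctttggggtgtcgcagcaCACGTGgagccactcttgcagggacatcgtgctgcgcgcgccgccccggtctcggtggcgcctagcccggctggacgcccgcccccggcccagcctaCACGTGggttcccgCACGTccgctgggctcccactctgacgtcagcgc
Searched on both strands, ACGTG matched 0 times in the Gys1 window, 1 time in Pygm, 2 times in Hk2 and 5 times in this Ldha window, where each CACGTG counts once per strand. RefSeq lists a second Ldha start, with the window chr7:46846832-46847081, which held 0. A stretch of bases just after each start was searched for in the annotated transcripts of its gene. Such a stretch was found for the second Ldha start and for Gys1, Pygm and Hk2, but not for the Ldha start shown. Over all 32851 RefSeq windows of this length, 16.6% held ACGTG. Among the 16 windows listed for the 9 members, 7 windows of 5 members held it. Not all windows are separate: the Aldoa windows chr7:126799255-126799504 and chr7:126799179-126799428 overlap and hold the same match. The E-box CANNTG, which includes CACGTG, matched in 14 of the 16 windows and in 66.2% of all windows, and a MEF2-type match was found in 0 of the 16 and in 2.92% of all. These are letter matches in one window and no measurement of binding.

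Before the enzymes, the state of the libraries is given. Il17ra, the gene named by the genotype label, was measured at 75.9, 107, 85.4 and 119 CPM (read counts scaled to library size with TMM factors) in the wild-type-labelled libraries and at 200, 185, 181, 284 and 192 CPM in the 5 labelled IL17ra-/-. Its transcript was thus higher in the libraries labelled as knockout (log2 fold change 1.11, SE 0.17, adjusted p = 0.00208 by edgeR's quasi-likelihood test with Benjamini-Hochberg adjustment), and the groups are named by their labels throughout. Exon counts summed over a gene do not show whether a part of it is deleted. Libraries held 31.3 to 46.4 M (mega) counts. Wild-type replicate 2 stood apart on the first principal component, which carried 38.2% of the variance. Fibroblast genes dominated: 10 fibroblast markers summed to 82380 to 108000 CPM, led by Gsn at 34680 CPM, Col3a1 at 17400 CPM and Dcn at 12610 CPM. The 20 myofibre markers, led by Acta1, Tpm1 and Tpm2, summed to 2160 to 5083 CPM in the wild-type-labelled libraries and 5156 to 6914 CPM in those labelled IL17ra-/-, without overlap, and 4 of the 20 rose (Acta1, Myh2, Tpm2 and Mb) while 0 fell. For comparison with this and the marker counts below, 1.35% of all 16039 genes tested were called higher and 1.71% lower. Leukocyte markers were near the floor, 20.7 to 38.4 CPM against 9.02 to 17.0 CPM in sum over 10 genes, with 8 of them at a count of 0 in at least 1 library, the common leukocyte antigen gene Ptprc among these, and Cd68 fell. That gene made the gap between the sums: the other 9 summed to 9.12 to 14.2 against 7.09 to 14.4 CPM, which overlap. Of the slow-fibre markers, 6 of 9 (Myh7, Myl2, Myl3, Tnnc1, Tnni1 and Tnnt1) rose by log2 fold changes of 2.12 to 3.07, from a sum of 35.9 to 101 CPM to one of 187 to 428 CPM without overlap, while Atp2a2, Tpm3 and Myh7b were not called and the sum of all 9 overlapped. Mural-cell markers summed to 1644 to 1926 CPM against 2528 to 3250 CPM and 6 of 8 rose, and satellite-cell markers to 200 to 281 CPM against 334 to 417 CPM with 3 of 8 rising. The 20 myofibre markers were thus detected in all 9 libraries, none of the 20 at 0, but in unequal amount between the groups. Their sum lay far below the fibroblast sum in every library. Whether these libraries stand for whole muscle, as labelled, was not tested. In counts from mixed cells, fewer cells of a type and less RNA per cell cannot be told apart. The part of slow fibres and of mural, satellite and leukocyte cells in the enzyme values below was not tested.

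Of the 9 enzymes, Gys1 and Pfkm rose in the libraries labelled IL17ra-/- and 0 fell, at an adjusted p under 0.05 over all genes tested. Over all 16039 genes, 3.06% were called, 1.35% higher and 1.71% lower. Without overlap between the groups, 3 members were higher (Gys1, Pygm and Pfkm) and 2 lower (Hk2 and Ldha). Over all genes 9.18% did not overlap, 4.63% higher and 4.56% lower. An unadjusted p under 0.05 was reached by 6 of 9 members and by 16.4% of all genes. The median log2 fold change was 0.28 over the 9 members and -0.00273 over all genes tested. DESeq2 called 5 members, adding Pygm, Eno3 and Ldha. Leaving out wild-type replicate 2 and replicate 1 labelled IL17ra-/- together left 2 called, Gys1 and Pfkm (adjusted p = 0.0211 and 0.0289, edgeR). The members did not share 1 direction: by point estimate the glycogen enzymes Gys1 and Pygm and the muscle forms Pfkm and Eno3 lay highest, Hk2 and Ldha lowest, and Hk1, Pfkl and Aldoa between them.

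**Figure D1:**
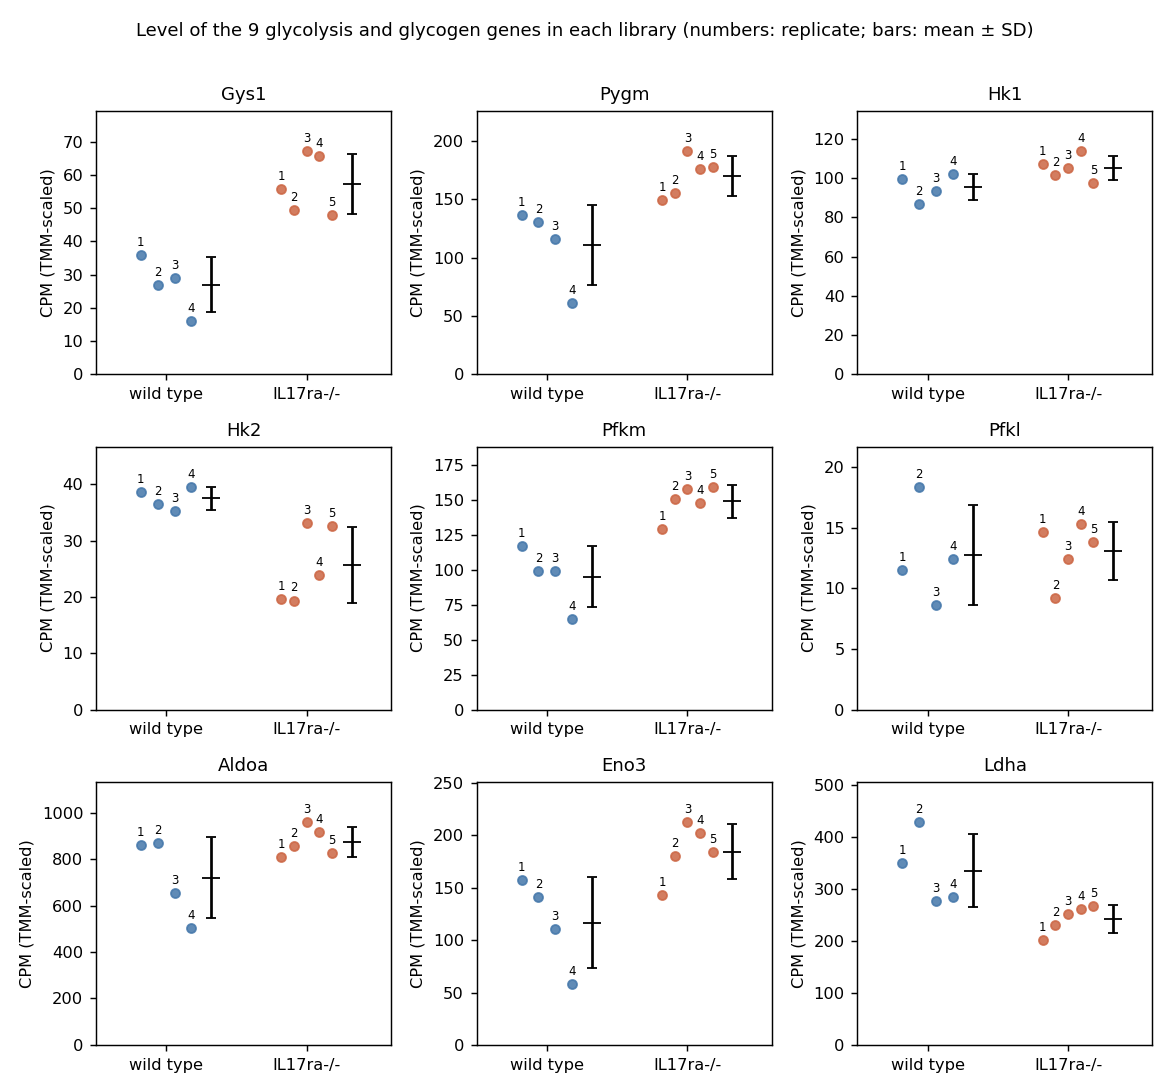
Level of each of the 9 enzymes in CPM scaled with TMM factors (vertical axes) for the 4 libraries labelled wild type and the 5 labelled IL17ra-/-; points are libraries, bars mean ± SD. Gys1, Pygm and Pfkm lie higher and Hk2 and Ldha lower in the libraries labelled IL17ra-/- without overlap, and wild-type replicate 4 is the lowest library for 5 members.

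Gys1, the glycogen synthase that lengthens glycogen chains, had the largest log2 fold change of the 9. Its levels were 36.0, 26.9, 28.9 and 16.01 CPM in the wild-type-labelled libraries and 55.9, 49.6, 67.1, 65.9 and 47.9 CPM in those labelled IL17ra-/-. Every library of the latter group lay above every library of the former, although the lowest of them and the highest wild-type replicate, replicate 1, were closer to each other than to the extremes of their groups. The means of 26.9 ± 8.27 CPM (SD, n = 4) and 57.3 ± 8.94 CPM (SD, n = 5) differed 2.13-fold, a log2 fold change of 1.09 (SE 0.20, 95% interval 0.66 to 1.51, adjusted p = 0.00791, edgeR). Gys1 kept its call under all 17 alternatives, at log2 fold changes from 0.91 to 1.26. The gene spans chr7:45434844-45456619 on the plus strand of GRCm38, and 6.47% of its exon bases also belong to exons of Ruvbl2 on the minus strand, which unstranded counts cannot tell apart.

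Pygm, the muscle glycogen phosphorylase that releases glucose units from the same store, had a difference in the same direction that missed the threshold. The libraries labelled wild type held 137, 130, 116 and 60.9 CPM and those labelled IL17ra-/- 149, 155, 191, 176 and 178 CPM. The groups did not overlap, and the spread of the wild-type group came mainly from replicate 4. Means were 111 ± 34.5 CPM (SD, n = 4) and 170 ± 17.3 CPM (SD, n = 5), a log2 fold change of 0.61 (SE 0.19, interval 0.20 to 1.03, adjusted p = 0.118, edgeR). DESeq2 called it at an adjusted p of 0.0309. The phosphorylases of brain and liver type, Pygb and Pygl, were at 93.0 ± 7.23 against 101 ± 7.36 CPM and at 110.5 ± 16.9 against 106 ± 12.4 CPM, with adjusted p-values of 0.622 and 0.856 by edgeR. Per exon length, Pygm made up 57.5%, 54.1%, 49.4% and 32.7% of the 3 phosphorylase transcripts in the wild-type-labelled libraries and 55.5% to 63.4% in those labelled IL17ra-/-. These shares overlapped, so that wild-type replicate 4 alone had more Pygb than Pygm transcript per length.

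The hexokinases phosphorylate glucose on entry, and neither of the 2 measured here passed the test. Hk2 was at 38.7, 36.5, 35.2 and 39.6 CPM in the wild-type-labelled libraries and at 19.6, 19.4, 33.1, 24.0 and 32.5 CPM in those labelled IL17ra-/-. The 4 wild-type values were close together, while replicates 3 and 5 of the other group lay just below them and replicates 1 and 2 far below. The means of 37.5 ± 2.00 CPM (SD, n = 4) and 25.7 ± 6.73 CPM (SD, n = 5) gave a log2 fold change of -0.54 (SE 0.17, interval -0.91 to -0.18), which missed the threshold (adjusted p = 0.118, edgeR). Hk1, the widely expressed hexokinase of the outer mitochondrial membrane, was at 99.4, 86.9, 93.6 and 102 CPM against 107, 102, 105, 114 and 97.5 CPM. These groups overlapped, with a log2 fold change of 0.14 (SE 0.10, interval -0.07 to 0.34, adjusted p = 0.516, edgeR), so that a difference of more than 0.34 on the log2 scale lay outside the interval. Hk1 lies at chr10:62268855-62379908 and Hk2 at chr6:82725025-82774454, both on the minus strand.

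Phosphofructokinase commits sugar to glycolysis, and its muscle subunit gene rose. Pfkm stood at 117, 99.2, 99.1 and 64.6 CPM in the wild-type-labelled libraries and at 129, 150.3, 157.5, 148 and 159 CPM in those labelled IL17ra-/-. No library of one group reached the other, and wild-type replicate 4 was again the lowest. The means were 95 ± 21.9 CPM (SD, n = 4) and 149 ± 11.9 CPM (SD, n = 5), 1.57-fold apart (log2 fold change 0.65, SE 0.15, interval 0.33 to 0.97, adjusted p = 0.0305, edgeR). This call was lost in 6 of 17 alternatives while the fold change stayed between 0.51 and 0.77 on the log2 scale: adjusted p was 0.0667 without wild-type replicate 3, 0.0727, 0.082, 0.0706 and 0.0699 without replicates 2, 3, 4 and 5 labelled IL17ra-/-, and 0.0846 with the replicate number as a block. Pfkm spans chr15:98092589-98132451 on the plus strand, and 10.7% of its exon bases are shared with exons of Senp1 on the minus strand and of the gene model Gm26513.

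Pfkl, the liver subunit, was the least abundant member, with 308 to 586 counts per library. It was at 11.5, 18.4, 8.61 and 12.4 CPM in the wild-type-labelled libraries and at 14.7, 9.23, 12.4, 15.3 and 13.8 CPM in those labelled IL17ra-/-. The ranges lay over each other, with a log2 fold change of 0.04 (SE 0.22, interval -0.43 to 0.51, adjusted p = 0.948, edgeR), a wide interval that leaves changes of that size undetected. Pfkp, the platelet subunit, was at 113 ± 12.1 and 114 ± 7.08 CPM (adjusted p = 0.978, edgeR). Among the 3 subunits per exon length, Pfkm made up 72.7 ± 4.70% (SD, n = 4) and 80.9 ± 1.90% (SD, n = 5), shares of 65.8% to 76.5% and 78.5% to 82.8% that did not overlap. The summed level of the 3 was 38.8 ± 6.86 and 55.1 ± 3.34 CPM per kilobase. These shares rest on merged exon lengths of 13401 bases for Pfkp and 3340 for Pfkm. In CPM without length, mean Pfkp lay above mean Pfkm with the wild-type label (113 against 95) and below it with the IL17ra-/- label (114 against 149).

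Further down the pathway, Aldoa, which splits fructose bisphosphate, was the most abundant member. It was at 859, 868, 652 and 502.5 CPM in the wild-type-labelled libraries and at 810.4, 856, 960, 915 and 826 CPM in those labelled IL17ra-/-. The groups overlapped because wild-type replicates 1 and 2 were as high as the other group, and the log2 fold change of 0.28 (SE 0.15, interval -0.05 to 0.60) had an adjusted p of 0.385 by edgeR. Without wild-type replicate 4, the lowest library, it was 0.14. The second Aldoa identifier held 0.820 to 2.82 and 0.432 to 2.30 CPM and was at -0.12 on the log2 scale. Reads that map equally well to several places were not counted.

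Eno3, the muscle enolase, was at 157, 141, 110.3 and 58.1 CPM in the wild-type-labelled libraries and at 143, 181, 213, 202 and 184 CPM in those labelled IL17ra-/-. The groups touched only where wild-type replicate 1 exceeded replicate 1 labelled IL17ra-/-. It had a log2 fold change of 0.66 (SE 0.23, interval 0.18 to 1.15, adjusted p = 0.154, edgeR), larger than that of Pfkm but with a wider error. Eno1, the widely expressed enolase, was at 82.2 ± 23.5 and 79.6 ± 6.35 CPM (adjusted p = 0.916, edgeR), with wild-type replicate 2 at 117 CPM.

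At the last step Ldha, the lactate dehydrogenase subunit that favours lactate formation, was at 350, 429.5, 277 and 285 CPM in the wild-type-labelled libraries and at 202, 230.5, 251.5, 261 and 268 CPM in those labelled IL17ra-/-. All 5 of the latter lay below all 4 of the former, by a narrow margin at wild-type replicates 3 and 4. Means of 335 ± 70.7 CPM (SD, n = 4) and 243 ± 26.5 CPM (SD, n = 5) gave a log2 fold change of -0.47 (SE 0.14, interval -0.77 to -0.17), which missed the threshold by edgeR (adjusted p = 0.0991) and passed it by DESeq2 (adjusted p = 0.027). The value rested in part on wild-type replicate 2, the highest library: the log2 fold change was -0.32 without it and -0.27 when replicate 1 labelled IL17ra-/- was left out as well (adjusted p = 0.161 and 0.228, edgeR). Its partner subunit Ldhb, typical of heart and oxidative fibres, went the other way. It was at 26.3, 33.6, 31.0 and 21.6 CPM against 45.8, 38.8, 51.9, 51.1 and 41.9 CPM and rose by a log2 fold change of 0.71 (SE 0.15, adjusted p = 0.0164, edgeR). The groups did not overlap, and the call was lost without replicate 3 labelled IL17ra-/- (adjusted p = 0.0554) and with the replicate number as a block (0.0601). The slow-fibre genes given above were higher in the same libraries, and their part in the Ldhb value was not tested.

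**Figure D2:**
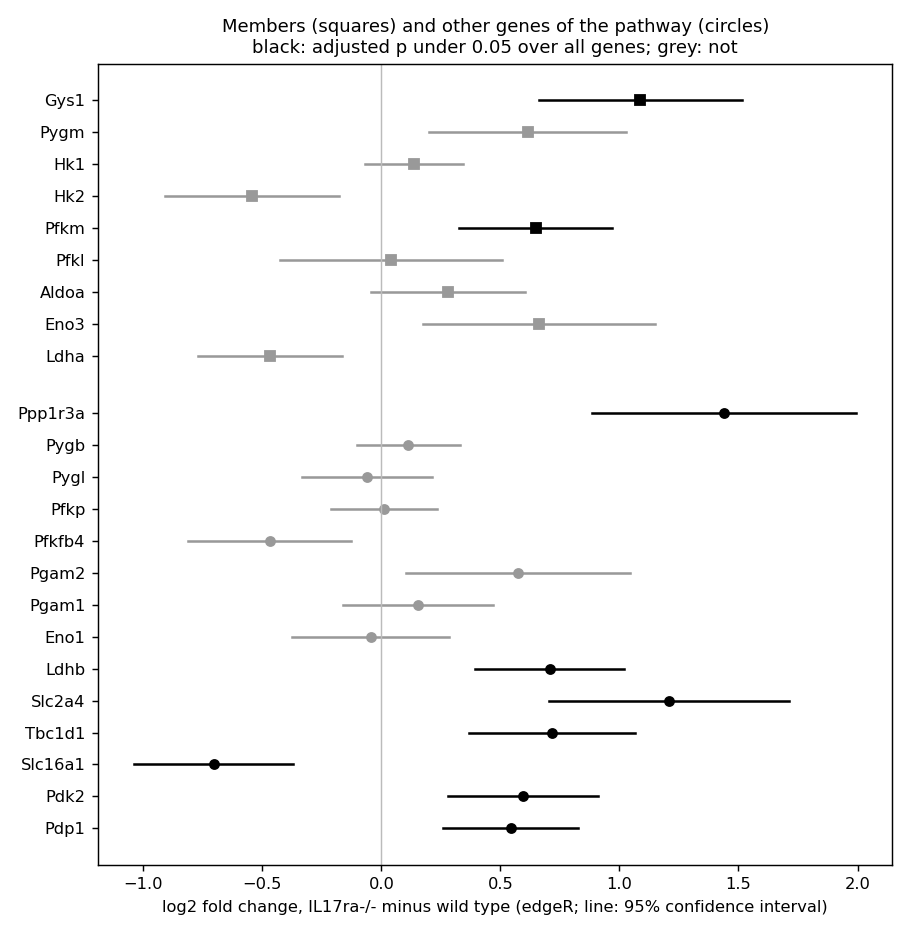
Log2 fold change (libraries labelled IL17ra-/- minus libraries labelled wild type, horizontal axis) from the edgeR fit with 95% intervals, for the 9 enzymes (squares) and the other named genes of the pathway (circles), black where called. Among the 9, the intervals of Gys1, Pygm, Pfkm and Eno3 lie above 0 and those of Hk2 and Ldha below, while Hk1, Pfkl and Aldoa include 0.

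Levels between genes were compared per kilobase of merged exon. This length joins all annotated exons of a gene, which can exceed the transcript in use. The order of genes, and the shares and ratios between isoenzymes, therefore depend on the annotation. In the wild-type-labelled libraries the order was Aldoa at 247.5 ± 60.6, Ldha at 101 ± 21.3, Eno3 at 67.0 ± 25.0, Pygm at 34.5 ± 10.7, Pfkm at 28.4 ± 6.57, Hk1 at 11.2 ± 0.780, Hk2 at 6.28 ± 0.336, Gys1 at 5.63 ± 1.73 and Pfkl at 1.91 ± 0.617 CPM per kilobase (SD, n = 4). Neighbours whose ranges overlapped in that group were Ldha and Eno3, Eno3 and Pygm, Pygm and Pfkm, and Hk2 and Gys1. In the libraries labelled IL17ra-/- Eno3, at 106 ± 15.3 CPM per kilobase (SD, n = 5), stood above Ldha at 73.3 ± 8.01 CPM per kilobase, and Gys1 at 11.96 ± 1.87 stood above Hk2 at 4.31 ± 1.13 CPM per kilobase. Eno3 ranged from 82.4 to 122 and Ldha from 61.1 to 80.9 CPM per kilobase there, so the order of this pair was the reverse of that of the means in the other group and without overlap. Aldoa ranged from 278 to 330 CPM per kilobase, Pygm was at 52.8 ± 5.36, Pfkm at 44.6 ± 3.57, Hk1 at 12.3 ± 0.704 and Pfkl at 1.96 ± 0.361 CPM per kilobase (SD, n = 5), and the neighbours Pygm and Pfkm, and Hk1 and Gys1, overlapped.

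To set each muscle-type gene against a relative in the same library, the log2 ratio of counts per kilobase was taken for 7 pairs. This quantity does not depend on library scaling, and exon length does not change its difference between the groups. Muscle-type means strong in muscle by background. Over these libraries, the 3 genes closest to Hk2 and to Ldha, given below, were not on the myofibre list. For lactate dehydrogenase the pair sets the subunit strong in fast muscle against the subunit typical of heart and oxidative fibres. Of the 7, 3 had an unadjusted p under 0.05 in the exact permutation test of the 4 against the 5 libraries, and 0 after Benjamini-Hochberg adjustment over the 7. The ratio of Hk2 to Hk1 was -0.85, -0.74, -0.90 and -0.85 in the wild-type-labelled libraries and -1.93, -1.88, -1.15, -1.73 and -1.07 in those labelled IL17ra-/-, a difference of -0.72 without overlap (two-sided exact permutation p = 0.0159, the smallest this design can give, adjusted p = 0.0556). As a share of both hexokinase transcripts, Hk2 was 36.0 ± 1.08% (SD, n = 4) against 25.7 ± 5.49% (SD, n = 5), while the summed level of both, 17.5 ± 1.06 and 16.6 ± 1.11 CPM per kilobase, overlapped within 1 SD.

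The ratio of Ldha to Ldhb was, in log2 units, 2.66, 2.60, 2.08 and 2.64 in the wild-type-labelled libraries and 1.07, 1.495, 1.20, 1.28 and 1.6 in those labelled IL17ra-/-. The difference of -1.17 was the largest in size among the pairs after Aldoa and Aldoc, and the groups did not overlap (exact permutation p = 0.0159, adjusted p = 0.0556). Ldha transcripts per length were thus 5.64 times those of Ldhb in the first group and 2.51 times in the second. Ldhb made up 15.2 ± 2.61% (SD, n = 4) and 28.6 ± 3.06% (SD, n = 5) of both.

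The muscle forms of enolase, phosphofructokinase, phosphorylase and phosphoglycerate mutase leaned the other way against their relatives. The ratio of Eno3 to Eno1 was 0.76 higher with the IL17ra-/- label (exact permutation p = 0.0476, adjusted p = 0.111), and p was above 0.05 in 9 of 11 alternatives. Pfkm to Pfkl was higher by 0.61 (p = 0.143, exact), Pygm to Pygb by 0.56 (p = 0.0952, exact) and Pgam2 to Pgam1, the muscle and general phosphoglycerate mutases, by 0.52 (p = 0.206, exact). In all 4 of these pairs wild-type replicate 4 was the lowest library, and without it the difference was 0.28 for Pygm to Pygb and 0.18 for Pgam2 to Pgam1 (exact p = 0.214 and 0.464). Aldoa to Aldoc, at a difference of 1.26 that became 0.18 without wild-type replicate 4, could not be resolved because Aldoc was at most 1.00 CPM and had 0 counts in some libraries (p = 0.492, exact).

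**Figure D3:**
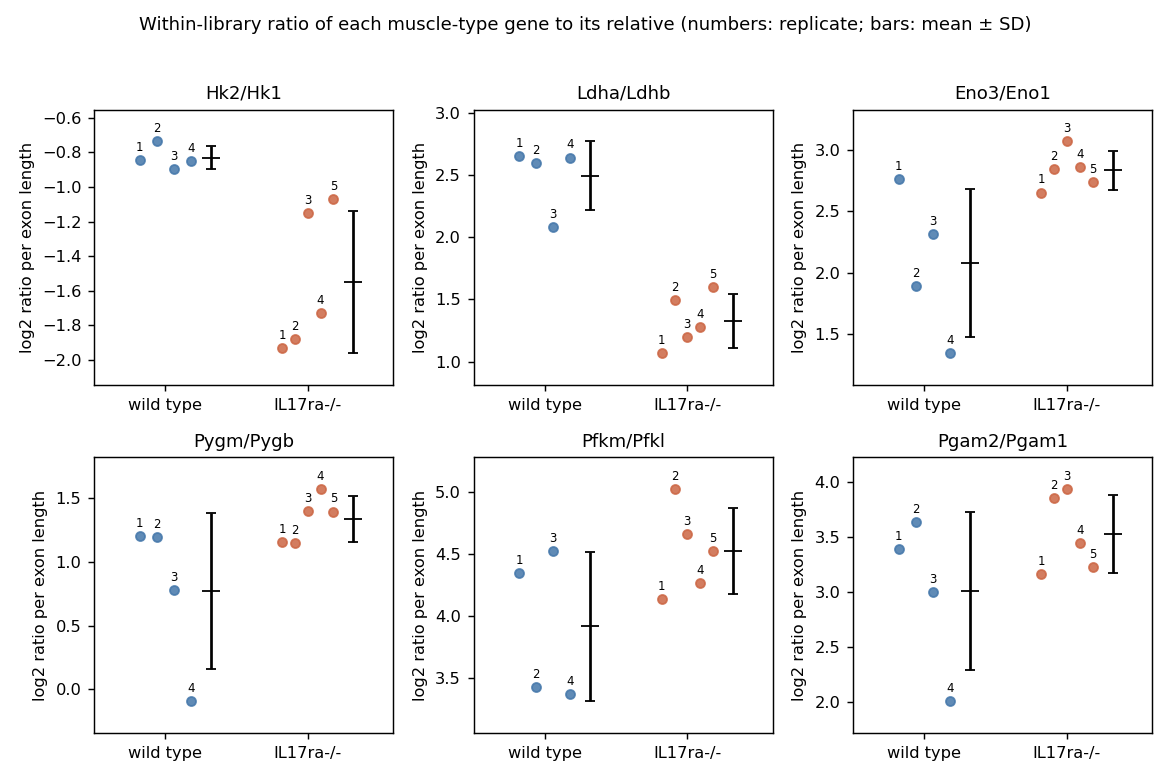
Log2 ratio of counts per exon length of a muscle-type gene to its relative (vertical axes) in each library, numbered by replicate, with mean ± SD, for 6 of the 7 pairs. Hk2/Hk1 and Ldha/Ldhb are lower in all 5 libraries labelled IL17ra-/-, while the other 4 pairs overlap and have wild-type replicate 4 lowest.

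Myofibre markers moved with the group, and each enzyme was therefore also expressed as a percentage of the summed CPM of the 20 myofibre markers in the same library. Wild-type replicate 4, lowest of the 9 libraries for 5 of the members, was lowest for 17 of the 20 myofibre genes too. By construction, a gene at equal level in both groups has a lower quotient where the marker sum is higher. On this scale Pygm was at 2.91 ± 0.183% and 2.77 ± 0.134%, Pfkm at 2.56 ± 0.325% and 2.44 ± 0.179% and Eno3 at 3.00 ± 0.253% and 3.00 ± 0.125% (SD, n = 4 and n = 5). The log2 differences of these 3 were -0.07, -0.07 and 0.00, with exact permutation p-values of 0.27, 0.476 and 0.984, and their groups overlapped. Set beside the summed myofibre markers of the same library, these 3 muscle isoforms had no difference past the threshold. The denominator mattered: with Acta1 alone, which itself rose, the log2 differences were -0.34 for Pygm, -0.34 for Pfkm and -0.27 for Eno3, at unadjusted exact p-values of 0.0317, 0.0476 and 0.0317.

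Gys1 differed from them. It was 0.708%, 0.628%, 0.767% and 0.741% of the marker sum in the wild-type-labelled libraries and 1.08%, 0.845%, 0.971%, 0.989% and 0.789% in those labelled IL17ra-/-. The groups did not overlap, and the log2 difference of 0.39 had an unadjusted exact permutation p of 0.0159. With Acta1 alone as the denominator the difference was 0.12 (exact p = 0.27), so the excess depended on the markers taken. The 6 slow-fibre genes that rose were higher in the same libraries, and their part in the Gys1 value was not tested.

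As quotients over the marker sum, Hk2 and Ldha were lower still. Part of this follows by construction, since the sum was higher in every library labelled IL17ra-/-, and it applies to Aldoa, Hk1 and Pfkl too. How large that part is was not tested, nor whether these transcripts come from myofibres. Hk2 was 1.09 ± 0.496% and 0.417 ± 0.0865%, a log2 difference of -1.32, and Ldha 9.37 ± 2.90% and 3.96 ± 0.277%, a difference of -1.19, both without overlap (unadjusted exact permutation p = 0.0159 for each). Ldha was nearly constant at 3.64% to 4.41% in the 5 libraries labelled IL17ra-/- and ran from 6.88% to 13.2% in the 4 labelled wild type. Wild-type replicate 4 was the highest library for both, and without it the differences were -1.05 for Hk2 and -1.01 for Ldha (exact p = 0.0357 for each). Aldoa was at 19.4 ± 2.96% and 14.3 ± 0.877% (log2 difference -0.43, unadjusted exact permutation p = 0.0159), and Hk1 at 2.80 ± 1.30% and 1.73 ± 0.211% (log2 difference -0.60, unadjusted exact p = 0.0476). The p for Hk1 was above 0.05 in 8 of 11 alternatives, and without wild-type replicate 4 the difference was -0.32 (exact p = 0.107). Pfkl differed by -0.67 (exact p = 0.143), and by -0.41 without wild-type replicate 4 (exact p = 0.321).

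**Figure D4:**
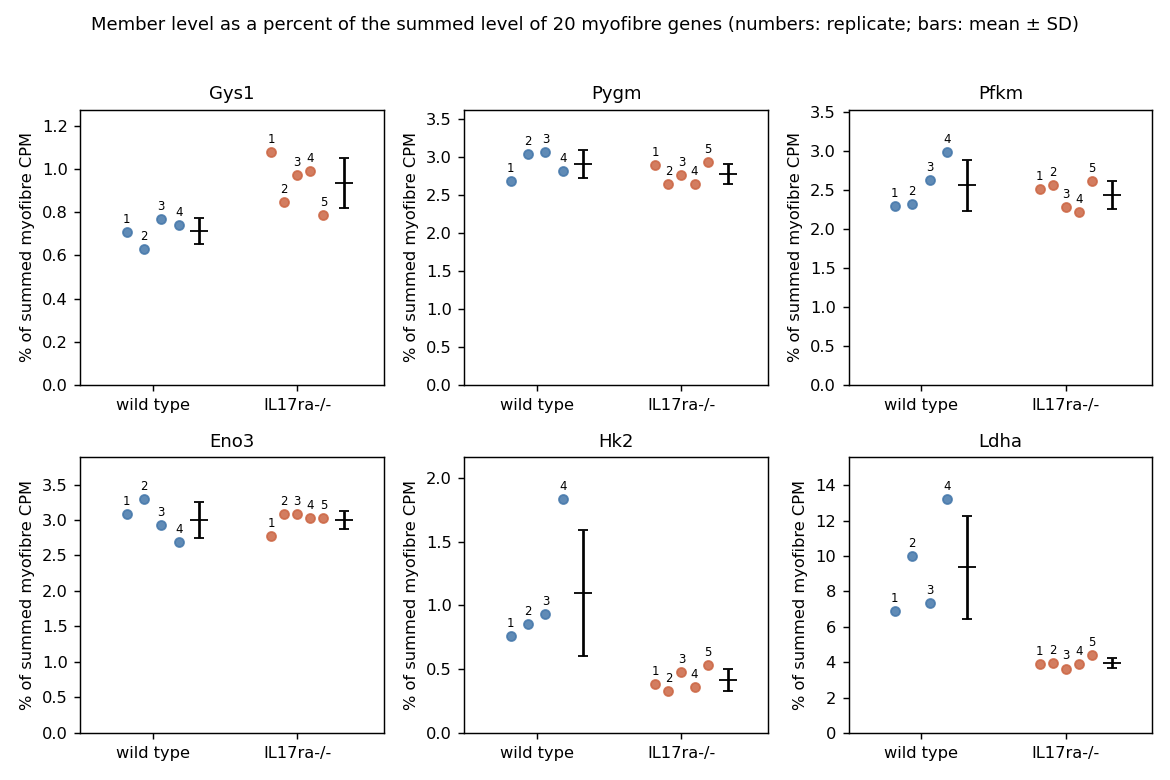
Level of 6 of the enzymes as a percentage of the summed CPM of 20 myofibre markers in each library, by group label, with replicate numbers and mean ± SD. Pygm, Pfkm and Eno3 overlap, Gys1 is higher and Hk2 and Ldha are lower in the libraries labelled IL17ra-/- without overlap.

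The genes whose level over the 9 libraries was most like each member's were taken by Pearson's r of log2(CPM + 1) among 9117 genes with a mean of at least 10 CPM. The 9 libraries include both groups, so a difference between groups raises r, and libraries share depth and tissue make-up. Pygm was most like the fast-fibre genes Tnni2 (r = 0.987) and Tnnt3 (0.982) and Chchd10 (0.982), Eno3 like Ckm (0.996), Tnnt3 (0.994) and Tnni2 (0.986), and Pfkm like Pdk2 (0.991), Acta1 (0.978) and Tpm2 (0.974). Gys1 was most like Hspb7 (0.993), Mb (0.992) and Synpo2 (0.989), and Aldoa like Smpx (0.990), Pgam2 (0.971) and Chchd10 (0.971). Between members, Pygm and Eno3 had r = 0.985 and Pygm and Pfkm 0.966. Aldoa had r = 0.962 with Eno3, 0.933 with Pygm, 0.857 with Pfkm and 0.826 with Gys1. With Hk1, Hk2, Pfkl and Ldha its r lay between -0.377 and 0.299. Genes of the myofibre list were thus among the 3 closest genes of Gys1, Pygm, Pfkm and Eno3. None was among the 3 closest of Aldoa, although Aldoa followed these members. Its 3 closest did include Pgam2, the muscle phosphoglycerate mutase, which is not on that list. For Hk1, Hk2, Pfkl and Ldha, none of the 3 closest was a gene of the myofibre list. Hk1 was most like Plcl1 (0.976), Rprd2 (0.961) and Sipa1l2 (0.959), Hk2 like Ccnyl1 (0.958), Prkcd (0.933) and Smarce1 (0.931), Pfkl like Mrpl50 (0.939), Dynlt3 (0.931) and Pigk (0.919), and Ldha like Snx7 (0.991), Eloc (0.981) and Commd4 (0.968). Hk2 and Ldha had r = 0.732 with each other.

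The remaining pathway genes were taken from the same fit. Of 47 other glycolysis and glycogen genes, 41 were tested, 3 rose and 0 fell, against 1.35% of all genes called higher, with a median log2 fold change of 0.16 and 28 of 41 positive. Ppp1r3a and Ldhb were among them. Ppp1r3a, the muscle subunit that brings protein phosphatase to glycogen, was at 9.26, 3.22, 8.38 and 5.94 CPM in the wild-type-labelled libraries and at 14.2, 18.5, 19.0, 17.6 and 21.7 CPM in those labelled IL17ra-/-, a log2 fold change of 1.44 (SE 0.26, adjusted p = 0.00727, edgeR). Every library labelled IL17ra-/- lay above every wild-type-labelled library, and Ppp1r3a kept its call under all 17 alternatives. Pfkfb4, which sets the level of the phosphofructokinase activator, was at 19.5 ± 1.37 and 14.1 ± 2.85 CPM without overlap (adjusted p = 0.152, edgeR). Pgam2 was at 52.3 ± 20.1 and 77.8 ± 8.34 CPM (log2 fold change 0.57, or 0.36 without wild-type replicate 4, adjusted p = 0.204 and 0.247, edgeR) and Pgam1 at 14.4 ± 0.962 and 16.02 ± 2.44 CPM (adjusted p = 0.648, edgeR).

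On either side of glycolysis, 20 genes of glucose entry and pyruvate fate were tested, of which 4 rose and 1 fell. Over all genes tested, 1.35% were called higher and 1.71% lower. The median log2 fold change of the 20 was 0.14. Slc2a4, the insulin-regulated glucose transporter, was at 14.5, 9.28, 15.2 and 7.55 CPM in the wild-type-labelled libraries and at 19.7, 20.5, 30.7, 33.9 and 29.9 CPM in those labelled IL17ra-/-. It rose, at a log2 fold change of 1.21 (SE 0.23, adjusted p = 0.0121, edgeR) and kept its call under all 17 alternatives. Slc16a1, a monocarboxylate transporter that carries lactate, fell from 79.1 ± 19.2 CPM (SD, n = 4) to 48.5 ± 6.60 CPM (SD, n = 5), with an adjusted p of 0.0241 by edgeR. Tbc1d1, a regulator of glucose transporter traffic, rose by 0.72 (adjusted p = 0.0282), Pdk2, a kinase that inhibits pyruvate dehydrogenase, by 0.59 (0.0442) and Pdp1, the phosphatase that activates it, by 0.54 (0.0396), all on the log2 scale and by edgeR. The last 4 calls were lost in 5, 6, 9 and 8 of 17 alternatives in that order. Leaving out wild-type replicate 4 ended each of them, at adjusted p-values of 0.0648, 0.0637, 0.0629 and 0.0893, and so did leaving out replicate 1 or 3 labelled IL17ra-/-, at 0.0551 to 0.118.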

How the data were processed

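Quadriceps RNA of 4 libraries labelled wild type and 5 labelled IL17ra-/- was sequenced. Per the labels' protocols, RNA had an integrity number above 8.0 and libraries came from a TruSeq v2 kit, which does not mark strand, at a stated depth of 30 M reads. The submitters' processing notes name STAR, with the version not given in the sources used here. Raw counts were deposited, made per the file headers by featureCounts 1.6.0 on exons grouped by gene, for read pairs, without strand, on GENCODE M21 (GRCm38). Reads that map to several places were not counted. All 55536 identifiers matched that annotation, and coordinates are 1-based.

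Low counts were filtered with filterByExpr, library sizes scaled with TMM, and the groups compared with edgeR 4.0.16 in R 4.3.3 (quasi-likelihood test, two-sided, genotype label as the only term, Benjamini-Hochberg over 16039 genes, called under 0.05). Log2 fold changes are labelled IL17ra-/- minus wild type. The SE is the absolute fold change over the square root of F. Isoform ratios used a pseudocount of 0.5 counts, and ratios and myofibre shares were compared by two-sided exact permutation tests (scipy 1.17.1). A count of 3 was 0.0646 to 0.0959 CPM. The procedure was tested on simulated counts.

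The members and lists were chosen with earlier results of these data known. Named genes are the members, their isoenzyme relatives, every called gene and the 4 with the smallest p of each pathway list, the 3 most abundant genes of cell type lists and the 3 genes most like each member. A result that this rule names is not reported here. The called myofibre genes, the slow-fibre and endothelium genes, Cd68, Ptprc, Il17ra and genes sharing exons were named in addition, after their values were seen. Of the remaining marker lists, slow fibre summed to 577 to 719 against 687 to 1019 CPM over all 9. Endothelium markers summed to 269.9 to 463 against 313 to 387 CPM, with 0 of 8 called by edgeR. Tek made up most of this sum, at a mean of 295 CPM over the 9 libraries, followed by Kdr at 40.1 CPM. Flt1, Cdh5, Vwf, Pecam1, Emcn and Cldn5 had means of 7.47, 6.46, 2.29, 1.8, 0.59 and 0.522 CPM. Adipocyte markers summed to 42.1 to 80.1 against 51.8 to 177 CPM, and 1 of 8 rose. Alternatives were other scalings and filters, DESeq2 1.42.0, the replicate number as a block, each library left out, another pseudocount and other myofibre denominators.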

Additional observations from a re-analysis of the deposited data

Results flagged for a closer look

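In 2 of 50 groups of values examined, 1 library lay far from the others of its group, where chance gives about 1 in 20 groups. The log2 ratio of Ldha to Ldhb was 2.08 in wild-type replicate 3, against 2.60 to 2.66 in the other 3 libraries labelled wild type. It still lay above all 5 libraries labelled IL17ra-/-. The log2 level of Eno3 over the myofibre marker sum was -5.17 in replicate 1 labelled IL17ra-/-, against -5.05 to -5.02 in the other 4.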

How the results depend on the processing

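Over 17 alternatives, Gys1, Ppp1r3a and Slc2a4 kept direction and call. The count of called genes was 491 and became 1017 with DESeq2, 363 with the replicate number as a block, 562 with library totals only and 275 to 567 when 1 library was left out. It was 275 without replicate 3 and 323 without replicate 1 labelled IL17ra-/-. With library totals only, the share of lower calls went from 55.8% to 41.3% and the median of all genes moved by 0.0615. The 2 called members became 5 with DESeq2 (Pygm, Eno3 and Ldha added), 1 with the block and 1 to 2 with a library left out. Without a filter Pygm was also called (adjusted p = 0.0375). Same-numbered libraries had correlations of 0.0344 to 0.0806, and differently numbered ones of -0.124 to 0.0777. These small correlations do not settle whether same numbers mark a pair. The numbers were not taken to pair libraries, as no label ties a library to an animal. With the replicate block 0 of the 3 isoform ratios had a p under 0.05, since 4 pairs cannot go below 0.125, and with a library left out 2 to 3 did. Without wild-type replicate 2 and replicate 1 labelled IL17ra-/- together, chosen after seeing the data, 524 genes and 2 members were called.

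The following differences changed sign. Of these genes, only Pfkm was called by edgeR in those fits (adjusted p = 0.0416 without wild-type replicate 4). Pfkl ran from -0.10 to 0.27 and Pfkp from -0.0514 to 0.0622 with 1 library left out. Pfkp was -0.05 and Eno1 0.22 without the 2 libraries named above. Eno1 ran from -0.116 to 0.179 (without wild-type replicate 2) and 0.0212 with library totals only, where Pygl was 0.00335. With 1 library left out, Pygl ran from -0.148 to 0.0294, Aldoc from -0.981 to 0.819 and Pfkm per myofibre transcript from -0.114 to 0.0120, the highest each without wild-type replicate 4. Eno3 per myofibre transcript ran from -0.0483 to 0.0482 with 1 library left out and was -0.27 with Acta1 alone as denominator (unadjusted exact p = 0.0317). The cause of these changes was not tested. Depth limits Aldoc, at most 1.00 CPM.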
